A study of Sus scrofa with 4 samples.

Results

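Genes with a ZNF symbol were examined as a class in granulosa cells of pig follicles transfected to interfere with YTHDF2. Members were chosen by symbol, ZNF followed by a number with or without 1 closing letter, and were selected on the deposited counts of the same 4 libraries, with a smallest count of at least 200. Among the 20491 genes listed, 252 carry such a symbol and 185 of these are members, all annotated as protein coding. The rule used the level of a gene and not its difference between groups, but a floor in every library can remove genes that are low in 1 group. Granulosa cells are the somatic cells around the oocyte in the ovarian follicle, and the study asks about YTHDF2 in the proliferation that the neurotrophin BDNF stimulates in them. The control group holds 2 libraries of cells given a transfection negative control, and the siYTHDF2 group holds 2 libraries of cells transfected to interfere with YTHDF2. All 4 libraries were labelled as porcine follicle granulosa cells, and the labels name no siRNA sequence, no BDNF treatment, and no separate cultures or animals. The spread behind every p-value is therefore that of these libraries alone and may be technical.

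ZNF genes encode proteins with zinc fingers, small folds in which cysteine and histidine residues hold a zinc ion. Most of them bind DNA, and the largest subgroup carries a KRAB domain, which recruits the co-repressor TRIM28 and with it the histone methyltransferase SETDB1 to silence transposable elements and genes. Many ZNF genes lie in tandem arrays of recent duplicates and are expressed at low levels, and as transcripts of regulatory genes their mRNAs are often short-lived. YTHDF2 binds N6-methyladenosine in mRNA and promotes decay of the bound transcript. Whether the ZNF transcripts shift as a class when YTHDF2 is reduced is the question of the comparison.

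The class did not shift as a whole against other genes in these libraries. The median log2 fold change of the 185 members, siYTHDF2 over control, was 0.019, with 98 members above 0 and 87 below, beside a median of 0.024 over all 10371 tested genes that also had at least 200 counts in every library. Single members moved in both directions by small amounts, from -0.59 for ZNF346 to 0.53 for ZNF593 on the log2 scale. With edgeR's quasi-likelihood test adjusted over the 15552 genes tested, 8 members rose and 7 fell with siYTHDF2 (threshold 0.05), while 170 were not called. Members were thus called in 8.11% of cases, against 19.6% of all genes tested and 25.8% of the genes with the same smallest count. By direction, the latter background was 12.4% higher and 13.4% lower (9.05% and 10.6% over all genes tested). Scaling between libraries places most genes near 0, with a median of 0.00069 over all 15552 genes tested. A shift that ZNF genes share with most transcripts would therefore not be seen. These libraries are bulk RNA, in which fewer cells of a type and less RNA per cell cannot be told apart.

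The libraries held total counts of 47209177 to 54841851. YTHDF2 had control counts of 3660 and 3356 against 1122 and 1279 with siYTHDF2, so the targeted gene was lower in both libraries labelled siYTHDF2 (log2 fold change -1.49, SE 0.09, adjusted p = 1.49e-05). Of 14 granulosa markers 13 could be tested, and their summed level was 3230 to 3389 CPM (per-library counts after TMM scaling) in the control and 3236 to 3364 in the siYTHDF2 libraries. Most of that sum is GJA1, a gap junction gene that was not called, at 2386 to 2515 CPM in the control and 2106 to 2246 CPM with siYTHDF2. Within the list SERPINE2 (log2 fold change 0.98, adjusted p = 2.29e-05) and CDH2 (0.31, adjusted p = 0.00885) were higher and INHBB (-0.69, adjusted p = 0.00213) was lower. The defining marker CYP19A1, the aromatase gene, had control counts of 0 and 11 against 0 and 6 with siYTHDF2, while FSHR, the receptor of follicle-stimulating hormone, had 484 to 622 counts in the 4 libraries. Of 13 listed theca and stroma markers 11 could be tested, while CYP17A1 and INSL3 could not. Of the tested markers 8 were lower and 1 higher. Their summed level was 22803 and 23499 CPM in the control against 13103 and 12783 CPM with siYTHDF2. The largest part of that sum was ACTA2, at 12148 and 12801 CPM in the control and 6639 and 6286 CPM with siYTHDF2. The higher marker was DES, at 52.2 and 58.6 CPM in the control and 239 and 206 CPM with siYTHDF2. Whether the number of theca or stroma cells differed was not tested. The part of these marker differences in the ZNF results was not tested. Endothelial, leukocyte, epithelial and oocyte markers summed to at most 14.9, 8.47, 8.24 and 11.8 CPM in any library. Most of the endothelial sum was PECAM1 and most of the oocyte sum GDF9, neither of them called. The called genes of these lists had few counts. VWF had 0 and 0 in the control against 24 and 30 with siYTHDF2 (adjusted p = 0.0118). CLDN4 had 11 and 15 against 0 and 0 (adjusted p = 0.0462).

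The members together were level across the libraries. Summed over members, the level was 4514 and 4449 CPM in control libraries and 4482 and 4571 CPM with siYTHDF2. The group values of 4481 ± 46.0 and 4527 ± 62.9 CPM (SD, n = 2 each) overlap. Taken gene by gene against the control mean, the median member stood at 0.0054 and -0.0054 on the log2 scale in the control libraries and at -0.0055 and 0.037 in the siYTHDF2 libraries. The control values mirror each other because they are set against their own mean. The class median kept close to 0 but not its sign. It was -0.017 without siYTHDF2 replicate 2, 0.047 without control replicate 1, and -0.038 in limma on log2(FPKM + 1), where the median of all genes tested was -0.031.

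The spread of the differences was narrow as well among the members, which all passed the floor. The quartiles of the members lay at -0.16 and 0.18 on the log2 scale, and those of the 10186 other genes with the same smallest count at -0.18 and 0.20. None of the 185 members changed by 2-fold or more in the fitted values of edgeR, and 1 member, ZNF346, changed by 1.5-fold or more. Among all genes with the same smallest count, 1.64% changed by 2-fold or more and 7.65% by 1.5-fold or more. Over all genes tested, which had no such floor, these shares were 7.82% and 19.2%. The 64 ZNF symbols tested under the floor had 14.1% and 34.4%, and all 249 ZNF symbols tested had 3.61% and 9.24%. Most changes of these sizes, in all genes, lay under the floor. Of the 1216 genes that changed by 2-fold or more, 170 passed the floor, as did 793 of the 2980 at 1.5-fold or more. The shares over all genes tested are therefore not a matched background for the 64 symbols. A floor in every library limits how far a member with few counts can be seen to fall. Both libraries of one group lay above both of the other in 103 members, which is 55.7% of the class, against 67% of all genes with the same smallest count and 60% of all genes tested. The median absolute log2 difference between groups was 0.17 for members. The median absolute difference between the replicates of a group was 0.15 between control libraries and 0.11 between siYTHDF2 libraries. For all genes with the same smallest count the 3 values were 0.19, 0.11 and 0.10. The value between groups compares 2 libraries with 2 and the others single libraries, so their sizes are not directly comparable.

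**Figure D1:**
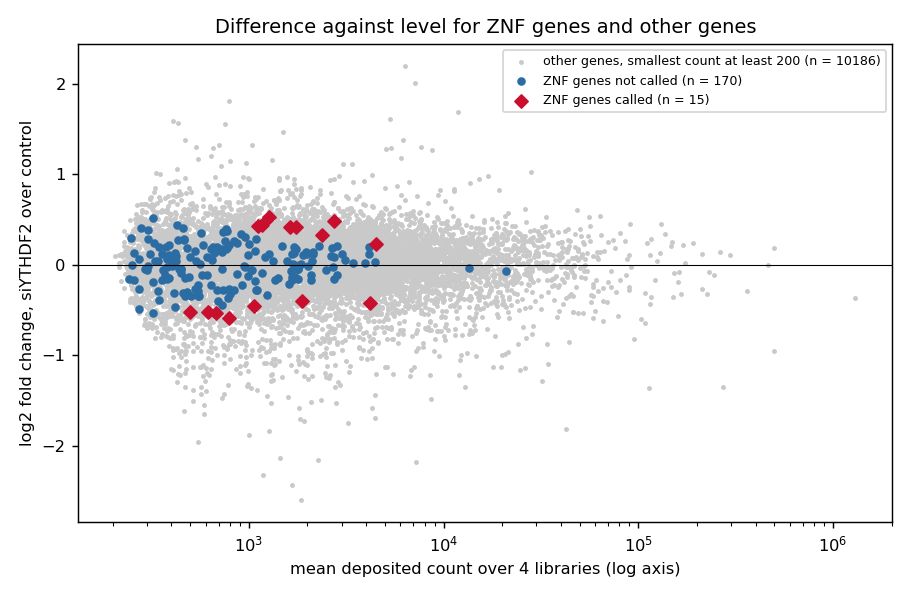
Each point is 1 gene with at least 200 counts in all 4 libraries, with its mean deposited count on a log axis and its log2 fold change, siYTHDF2 over control, on the other. The 185 ZNF genes (blue, or red where called) lie between -0.59 and 0.53, inside the range of -2.60 to 2.20 of the 10186 other genes (grey).

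**Figure D2:**
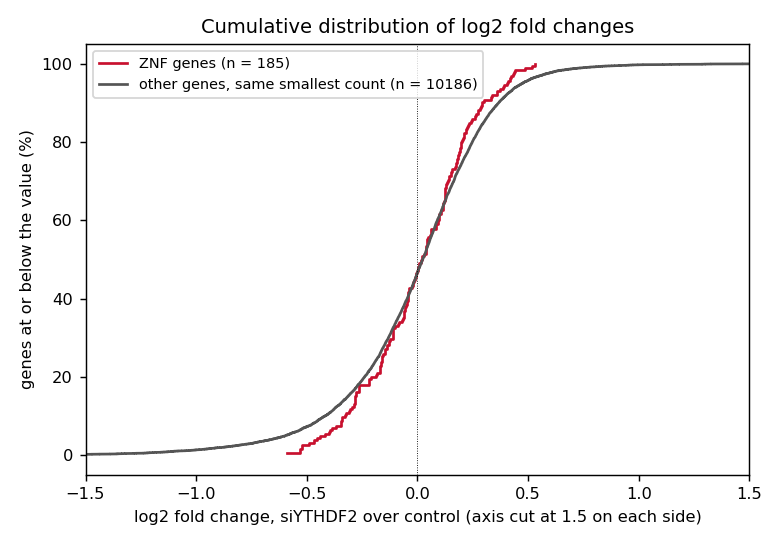
The curves give the percentage of genes at or below each log2 fold change for the 185 ZNF genes (red) and the 10186 other genes with the same smallest count (dark grey). Both cross the middle near 0, with medians of 0.019 and 0.024.

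Low counts limit what can be called, and members had fewer counts than other genes. The median member had a mean count of 740 over the 4 libraries, and the median of the other genes with the same smallest count was 1975. In genes with a mean count up to 400, none of 36 members was called by edgeR, 4 of them at an unadjusted p under 0.05, against 66 of 699 other genes. Between 400 and 800 counts 4 of 67 members (5.97%) and 18.2% of 1585 other genes were called. Between 800 and 1600 counts these shares were 4 of 32 members (12.5%) and 21.9% of 2142 genes. From 1600 to 3200 counts 5 of 41 members (12.2%) and 642 of 2290 other genes were called, and above 3200 counts 2 of 9 members (22.2%) and 34.5% of 3470 genes. The share of members called was the lower of the 2 in each of the 5 bands, a difference given as a description without a test. Their median SE lay between 0.07 and 0.19 across the bands and differed by at most 0.01 from that of other genes in the same band. The median absolute log2 difference was smaller in members in each band, by little between 400 and 800 counts (0.22 against 0.23) and by more from 1600 to 3200 counts (0.12 against 0.18).

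**Figure D3:**
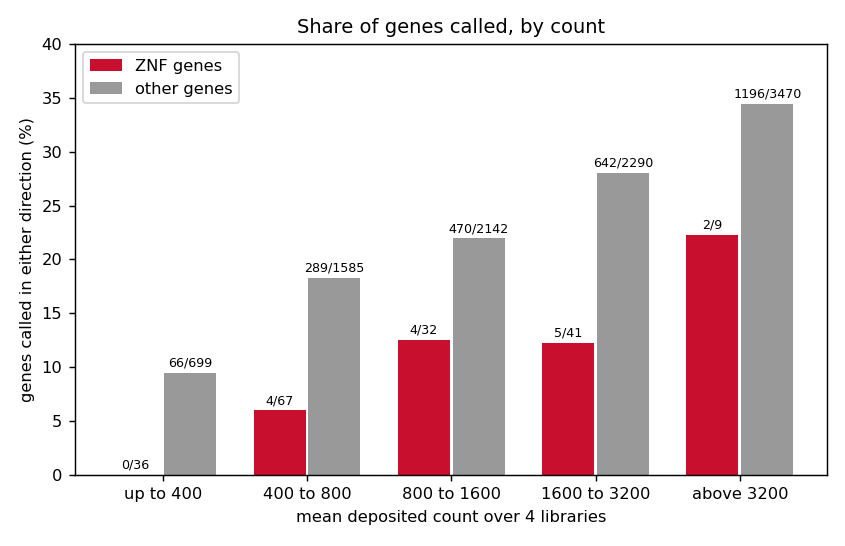
Bars give the percentage of genes called in either direction by edgeR in 5 bands of mean deposited count, for ZNF genes (red) and other genes with the same smallest count (grey), with called over tested genes printed above each bar. The red bar is lower in every band, from 0 against 9.44% in the lowest to 22.2% against 34.5% in the highest.

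The floor of 200 counts in every library also left out ZNF genes that differ. Of the 67 ZNF symbols under the floor 64 could be tested, and 3 of these were called, all lower. That is 4.69%, against 19.6% of all genes tested (9.05% higher and 10.6% lower). That background is not matched, since most calls fell on genes that passed the floor. Of the 3052 genes called among all 15552 tested, 2678 were among the 10371 with at least 200 counts in every library. These were 1288 of the 1408 called higher and 1390 of the 1644 called lower. The share among other genes under the floor was not computed. ZNF34 had control counts of 347 and 397 against 151 and 185 with siYTHDF2, ZNF213 had 268 and 170 against 52 and 101, and ZNF576 had 254 and 294 against 111 and 181. Their log2 fold changes were -1.09 (SE 0.19, adjusted p = 0.00459), -1.49 (SE 0.34, adjusted p = 0.0163) and -0.87 (SE 0.24, adjusted p = 0.0341), each larger in size than that of any member. The call of ZNF34 was kept without each library in turn, that of ZNF213 was lost without control replicate 1 (adjusted p = 0.0896), and that of ZNF576 was lost without either control library or siYTHDF2 replicate 1 (adjusted p = 0.0513 to 0.165). A floor on the mean count in place of the smallest gives 196 genes with 8 higher, 9 lower and a median of 0.0076, and all 249 ZNF symbols tested had 8 higher, 10 lower and a median of 0.0043. At the edge, the members with the smallest counts were ZNF397 with 327 and 275 in control libraries against 200 and 286 with siYTHDF2, ZNF692 with 303 and 221 against 203 and 250, and ZNF227 with 208 and 336 against 356 and 391. Just outside stood ZNF8 with 303 and 185 against 215 and 249, ZNF713 with 363 and 317 against 182 and 255, and ZNF792 with 253 and 182 against 227 and 226. The 9 genes that the table describes as a numbered zinc finger protein but lists without a ZNF symbol are not members.

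ZNF593 and ZNF622 had the largest log2 fold changes among the 8 members called higher. ZNF593, whose yeast counterpart acts in maturation of the large ribosomal subunit, stood at 19.5 and 20.4 CPM in the control and 30.1 and 27.4 CPM with siYTHDF2. Its log2 fold change was 0.53 (SE 0.11, adjusted p = 0.00842). ZNF622, which acts late in maturation of the same subunit, stood at 40.9 and 46.6 CPM in the control and 64.1 and 58.5 CPM with siYTHDF2, and rose by 0.49 (SE 0.09, adjusted p = 0.00676). In both genes the groups did not overlap, and both calls were kept without each library in turn. By the deposited coordinates ZNF593 (ENSSSCG00000045776) spans 83590895 to 83593278 of chromosome 6, and ZNF622 (ENSSSCG00000016793) spans 5699744 to 5714516 of chromosome 16. In contrast ZNF598, the ubiquitin ligase that marks collided ribosomes, had 1637 counts in each control library against 1590 and 1844 with siYTHDF2 and was not called (log2 fold change 0.12, SE 0.09, adjusted p = 0.400).

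ZNF346, which binds double-stranded RNA, had the largest change in size among members. Its control counts of 926 and 997 stood against 572 and 656 with siYTHDF2, with groups well apart, and the log2 fold change was -0.59 (SE 0.12, adjusted p = 0.00836), a call kept without each library in turn. ZNF346 (ENSSSCG00000014046) spans 80871595 to 80895585 of chromosome 2. ZNF830, a protein associated with the spliceosome, stood at 17.6 and 18.9 CPM in the control and 25.7 and 23.7 CPM with siYTHDF2 (log2 fold change 0.43, SE 0.11, adjusted p = 0.0228). Its call did not survive leaving out control replicate 1 (adjusted p = 0.0904) or siYTHDF2 replicate 1 (adjusted p = 0.115). ZNF638, an RNA-binding protein that also helps to silence unintegrated retroviral DNA, was at 77.9 and 79.6 CPM against 92.6 and 92.7 CPM (log2 fold change 0.23, SE 0.07, adjusted p = 0.0398). Although its replicates lay close together, that call was lost without any one of the 4 libraries (adjusted p = 0.0827 to 0.159). ZNF326, which couples elongation and splicing as part of the DBIRD complex, was not called at 0.19 (SE 0.07, adjusted p = 0.0929), although its groups did not overlap.

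Among factors that bind promoters, the paralogues ZNF143 and ZNF76 differed in opposite directions. ZNF143, an activator of small nuclear RNA genes and many mRNA promoters, stood at 16.6 and 21.3 CPM in the control and 26.8 and 24.7 CPM with siYTHDF2 (log2 fold change 0.44, SE 0.13, adjusted p = 0.0453). Its replicates in the control were far apart, and the call was lost without control replicate 1 (log2 fold change 0.27, adjusted p = 0.218) or siYTHDF2 replicate 1 (adjusted p = 0.134). ZNF76 had control counts of 741 and 892 against 478 and 611 with siYTHDF2 (log2 fold change -0.53, SE 0.14, adjusted p = 0.0261), a call lost without control replicate 2 (adjusted p = 0.112) or siYTHDF2 replicate 1 (adjusted p = 0.0934). ZNF148 and ZNF281, which bind GC-rich promoters, were not called at 0.18 (SE 0.10, adjusted p = 0.232) and 0.015 (SE 0.07, adjusted p = 0.922). ZNF24, a SCAN-domain repressor of VEGFA, was at -0.025 (SE 0.09, adjusted p = 0.886), and ZNF410, an activator of the CHD4 gene, at 0.14 (SE 0.09, adjusted p = 0.341).

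ZNF609, ZNF217 and ZNF185 were lower, each with a call that was lost in 2 of the 4 fits that leave out a library. ZNF609, a partner of the cohesin loader NIPBL and the host gene of a circular RNA, stood at 99.0 and 82.8 CPM in the control and 64.0 and 72.0 CPM with siYTHDF2 (log2 fold change -0.42, SE 0.10, adjusted p = 0.0179). The call was lost without control replicate 1 (log2 fold change -0.29, adjusted p = 0.0804) or siYTHDF2 replicate 1 (adjusted p = 0.0551), and linear and circular transcripts are not separated in these counts. ZNF217, an oncogene amplified in breast cancer, stood at 44.7 and 36.1 CPM against 29.7 and 31.8 CPM (log2 fold change -0.39, SE 0.12, adjusted p = 0.0415). Its difference rested on control replicate 1, the highest library, since it was -0.23 without it (adjusted p = 0.254), and the call was also lost without siYTHDF2 replicate 1 (adjusted p = 0.117). ZNF185, a LIM-domain protein that binds the actin cytoskeleton rather than DNA, had control counts of 749 and 739 against 471 and 526 with siYTHDF2 (log2 fold change -0.52, SE 0.13, adjusted p = 0.0220). This call was lost without control replicate 1 (adjusted p = 0.0803) or siYTHDF2 replicate 2 (adjusted p = 0.0706).

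ZNF398 and ZNF287 complete the lower members. ZNF398, a partner of estrogen receptor alpha in human cells, stood at 25.1 and 21.7 CPM in the control and 16.2 and 18.0 CPM with siYTHDF2 (log2 fold change -0.45, SE 0.12, adjusted p = 0.0280). The call depended on control replicate 1 (adjusted p = 0.139 without it) and on siYTHDF2 replicate 1 (adjusted p = 0.115 without it). ZNF287 had control counts of 631 and 561 against 356 and 446 with siYTHDF2 (log2 fold change -0.52, SE 0.15, adjusted p = 0.0395), and its call was kept only without control replicate 2, with adjusted p = 0.0630 to 0.196 without each of the other libraries.

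On the higher side stood also ZNF260, ZNF800 and ZNF75D. ZNF260 had control counts of 1477 and 1383 against 1752 and 1929 with siYTHDF2 (log2 fold change 0.42, SE 0.10, adjusted p = 0.0173). ZNF800 had control counts of 1599 and 1458 against 1810 and 2130 with siYTHDF2 (log2 fold change 0.42, SE 0.10, adjusted p = 0.0174). ZNF75D was at 38.1 and 42.3 CPM against 53.7 and 47.5 CPM (log2 fold change 0.33, SE 0.10, adjusted p = 0.0406). In none of them did the groups overlap, but calls were lost without control replicate 2 for ZNF260 (adjusted p = 0.0651) and ZNF800 (adjusted p = 0.0706), without control replicate 1 for ZNF75D (adjusted p = 0.181), and without siYTHDF2 replicate 1 for ZNF260 (adjusted p = 0.0713) and ZNF75D (adjusted p = 0.250).

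**Figure D4:**
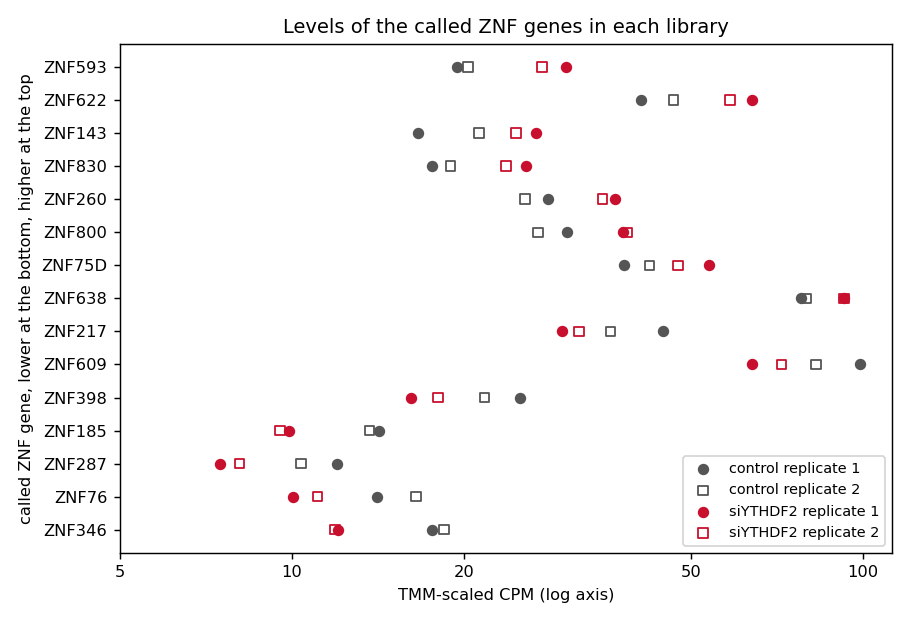
Each row is 1 of the 15 called ZNF genes, and each mark its TMM-scaled CPM in 1 library on a log axis, with control in grey, siYTHDF2 in red, replicate 1 filled and replicate 2 open. Red and grey marks do not overlap in any row, and in several rows, such as ZNF217 at 44.7 and 36.1 CPM in the control, the replicates lie nearly as far apart as the groups.

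Of 35 ZNF genes listed for a known role, 31 were members, and 5 of these were higher, 4 lower and 22 not called. That is 29.0% called, near the 25.8% of all genes with the same smallest count. Per length, the levels of members ran from 0.668 to 72.6 FPKM (fragments scaled to gene length and library size) as means over the 4 libraries, with a median of 2.93 FPKM. The highest was ZNF664 at 78.3 and 73.7 FPKM in the control and 65.8 and 72.6 FPKM with siYTHDF2. It was followed by ZNF207, a partner of BUB3 in spindle assembly, at a mean of 40.9 FPKM, and by ZNF622, ZNF277 and ZNF281 at means of 25.9, 22.7 and 21.1 FPKM. Neither ZNF664 (log2 fold change in CPM -0.07, SE 0.07, adjusted p = 0.564) nor ZNF207 (-0.04, SE 0.07, adjusted p = 0.775) was called, and the groups of each overlapped in CPM. The same held for ZNF277 at 0.10 (SE 0.09, adjusted p = 0.534). ZNF207 overlaps C17orf75 and ZNF277 overlaps DOCK4 in the table, as 25 members overlap some other gene. The sources used here do not state whether counting used strand.

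The remaining members with a known role were not called. ZNF532, ZNF592 and ZNF687, which belong to a complex with ZMYND8, were at -0.04, -0.07 and 0.20 on the log2 scale (adjusted p = 0.836, 0.665 and 0.183). ZNF644, a partner of the histone methyltransferases G9a and GLP, was at 0.12 (adjusted p = 0.370), ZNF335, part of a complex that methylates histone H3, at 0.08 (adjusted p = 0.698), and ZNF451, a SUMO ligase, at -0.13 (adjusted p = 0.405). ZNF10, the source of the KRAB domain used in CRISPR interference, had 347 and 470 counts in control libraries and 356 and 346 with siYTHDF2, which overlap (log2 fold change -0.15, adjusted p = 0.646). Larger differences that also missed the threshold were those of ZNF395, a hypoxia-induced factor, at -0.44 (SE 0.15, adjusted p = 0.0634), ZNF711, a partner of the demethylase PHF8, at -0.35 (SE 0.14, adjusted p = 0.108), and ZNF827, which recruits the NuRD complex to telomeres, at -0.33 (SE 0.14, adjusted p = 0.135). Without control replicate 2 the values of ZNF395 (adjusted p = 0.0147) and ZNF827 (adjusted p = 0.0141) passed. ZNF516, an activator of brown fat genes, and ZNF521, a partner of EBF factors, were at -0.28 (adjusted p = 0.239) and -0.17 (adjusted p = 0.286). ZNF703, a luminal breast cancer oncogene, was at 0.19 (adjusted p = 0.467), ZNF131 at 0.04 (adjusted p = 0.822), and ZNF292, a tumour suppressor, at 0.0023 (adjusted p = 0.995).

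KEGG places 69 members in its herpes simplex virus infection entry, which holds many KRAB genes. Of these 1 was called, lower (1.45%), with a median log2 fold change of 0.043, whereas the 116 members outside it had 8 higher and 6 lower (12.1%) and a median of 0.0052. The former had fewer counts (a median mean count of 566 against 975). Above a mean count of 800, 1 of 20 members in the entry and 10 of 62 outside it (16.1%) were called, beside 29.2% of 7902 other genes. By GO terms, 23 members annotated as repressors but not activators of RNA polymerase II had 1 call, lower, at a median of 0.058, and 25 annotated as activators alone had 2 higher and 2 lower at a median of -0.060. The difference between these groups was not tested. Members on the role list had more counts as well (a median mean count of 1667 against 664 for the 154 others), and above 800 counts 7 of 24 on it (29.2%) and 4 of 58 off it (6.90%) were called. Because the role list was chosen with earlier results of these data known, its share may reflect that choice and is a description only.

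Members lay on 18 chromosomes, and 107 of them had another member within 1 Mb. Chromosome 6 held 47 members, of which 29 lay above 0, with a median log2 fold change of 0.098 against 0.034 for the 1051 other genes with the same smallest count on that chromosome. ZNF593 and ZNF260 were called there, 4.26% of its members, against 24.6% of those other genes. Its largest run of members, 10 genes between 59634503 and 60707151 that include ZNF628, ZNF579 and ZNF583, had a median of -0.098 with 4 positive. In the run of 8 between 45520895 and 46470057 around ZNF260, 6 were positive with a median of 0.16, and in the 6 genes from ZNF773 to ZNF446 between 61929587 and 63055808 all were positive with a median of 0.11. The run of 8 between 49699431 and 51008479, from ZNF526 to ZNF180, had the largest median of these runs, 0.21, with 6 positive. Of these 4 runs on chromosome 6, 3 thus had a positive median and 1 a negative one. Elsewhere, runs of 6 members on chromosomes 14 and 4 had medians of 0.038 and -0.017. The runs of 5 members on chromosome 3 had medians of 0.043 and 0.12. Duplicated members of such arrays can share reads, and how these were counted is not stated in the sources used here.

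On chromosome X the 8 members leaned lower, with a median of -0.28 against -0.022 for the 347 other genes there. ZNF185 was lower and ZNF75D higher, so 2 of the 8 were called, a share near the 25.4% of the other genes on X. Of the 6 not called, ZNF81 had control counts of 430 and 342 against 223 and 295 with siYTHDF2, and ZNF449 had 584 and 559 against 398 and 471. ZNF81, ZNF711, ZNF449, ZNF41 and ZNF280C all had both siYTHDF2 libraries below both controls in CPM without passing the threshold (adjusted p = 0.0912 to 0.624), and ZNF182 overlapped. Both siYTHDF2 libraries lay below both controls in 6 of the 8 members and in 121 of the 347 other genes on X. They lay above both controls in 1 of the members and 109 of the other genes. Counting both directions, groups did not overlap in 87.5% of the members and 66.3% of the other genes on X. Chromosome X was singled out after the values were seen.

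Genes on a list of co-repressors linked to KRAB proteins were called in both directions, at about the background share. Of 40 listed co-repressor genes 34 were tested, with 4 higher, 5 lower and a median log2 fold change of 0.012. That is 26.5% called at a median mean count of 5205, beside 25.8% of all genes with a smallest count of at least 200 and 34.5% of other genes above 3200 counts. TRIM28, the co-repressor that KRAB domains bind, was level at 228 and 229 CPM in the control and 221 and 222 CPM with siYTHDF2 (log2 fold change -0.05, SE 0.06, adjusted p = 0.665). SETDB1, the histone methyltransferase it recruits, stood at 27.9 and 26.5 CPM in the control and 15.6 and 17.5 CPM with siYTHDF2 (log2 fold change -0.71, SE 0.11, adjusted p = 0.00234). SETDB1 overlaps CERS2 in the table. The histone demethylase gene KDM1A had the largest change of the list, from 134 and 132 CPM to 76.2 and 74.3 CPM (log2 fold change -0.82, SE 0.07, adjusted p = 6.94e-05).

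UHRF1, which maintains DNA methylation, fell by 0.48 (SE 0.08, adjusted p = 0.00406). EHMT2, which encodes G9a, fell by 0.39 (SE 0.10, adjusted p = 0.0249), a call lost without control replicate 1 (adjusted p = 0.134) and siYTHDF2 replicate 1 (adjusted p = 0.0728). MORC2, an ATPase that works with the HUSH silencing complex, fell by 0.26 (SE 0.07, adjusted p = 0.0249) and kept its call only without control replicate 1, with adjusted p = 0.0575 to 0.110 without each other library. On the higher side, the methyltransferase gene SUV39H1 rose by 0.63 (SE 0.13, adjusted p = 0.0103) and CHD3, a NuRD remodeller, by 0.34 (SE 0.07, adjusted p = 0.0102). The NuRD subunits GATAD2A (0.25, SE 0.07, adjusted p = 0.0332) and MBD3 (0.24, SE 0.07, adjusted p = 0.0364) were also called higher, GATAD2A with calls lost without control replicate 2 (adjusted p = 0.139) and without siYTHDF2 replicates 1 (adjusted p = 0.0520) and 2 (adjusted p = 0.186), and MBD3 without any one library (adjusted p = 0.0773 to 0.217). CBX5, a heterochromatin protein, had 24382 and 22804 counts in the control but 10459 and 24113 in the siYTHDF2 libraries, so that its replicates were far apart and no call was made (adjusted p = 0.632).

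**Figure D5:**
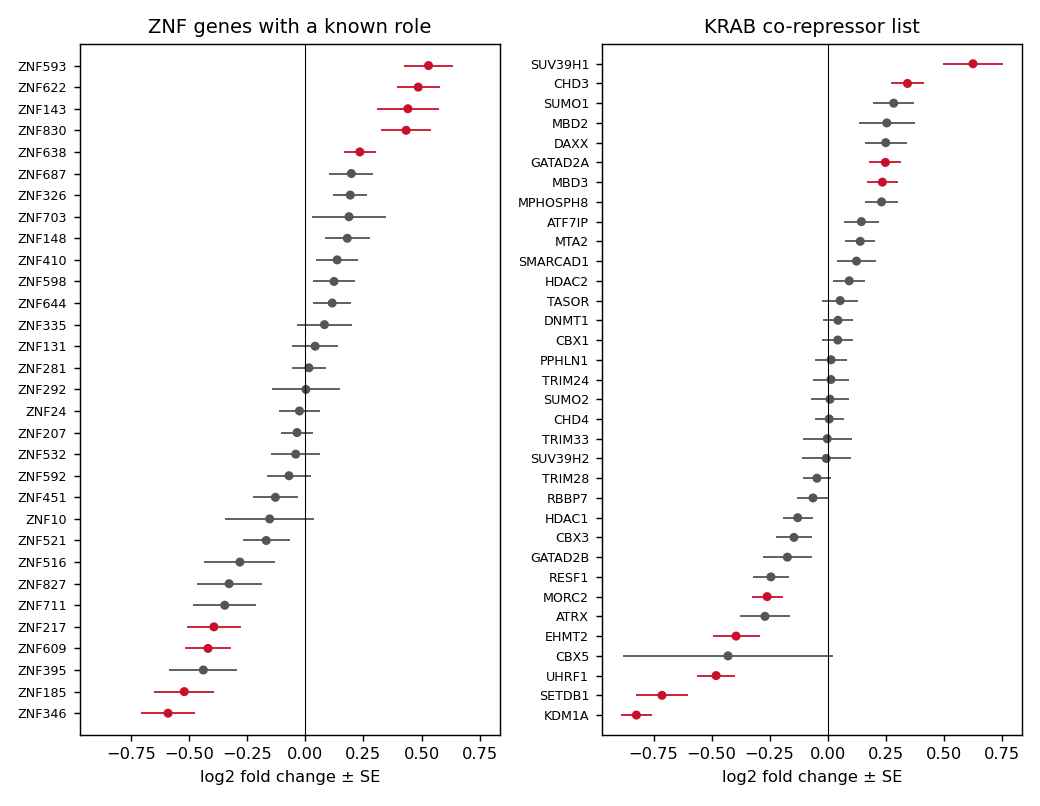
Points give the log2 fold change, siYTHDF2 over control, and lines 1 SE on each side, for 31 ZNF genes with a known role (left) and 34 co-repressor genes (right), with genes called by edgeR in red. ZNF genes run from -0.59 for ZNF346 to 0.53 for ZNF593, and co-repressors from -0.82 for KDM1A to 0.63 for SUV39H1.

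Zinc-finger genes with other symbols were counted in the same way. Of 38 ZBTB genes tested 1 was higher and 2 lower (7.89%), with a median of 0.021, and of 10 ZSCAN genes 1 was higher (10%). Of 6 ZKSCAN genes none was called by edgeR or at an unadjusted p under 0.05. Each of these shares, and the 12.5% of 16 ZFP genes, was below the 19.6% of all genes tested. ZBTB44 fell by 0.49 (SE 0.10, adjusted p = 0.00980) and ZBTB25 by 0.53 (SE 0.15, adjusted p = 0.0345), while ZBTB43 rose by 0.45 (SE 0.11, adjusted p = 0.0238). Calls were lost without any one library for ZBTB43 (adjusted p = 0.0565 to 0.0897) and without control replicate 1 (adjusted p = 0.175) or siYTHDF2 replicate 1 (adjusted p = 0.132) for ZBTB25, which overlaps MTHFD1 and AKAP5. ZSCAN16 had control counts of 72 and 91 against 160 and 194 with siYTHDF2 (log2 fold change 1.17, SE 0.27, adjusted p = 0.0161), a call lost without control replicate 1 (adjusted p = 0.0674). The 16 ZFP genes had 2 lower members, ZFP36L2 at -0.73 (SE 0.07, adjusted p = 0.000147) and ZFP36L1 at -0.32 (SE 0.06, adjusted p = 0.00906), which are RNA-binding decay factors with another kind of zinc finger rather than relatives of the ZNF genes.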

How the data were processed

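RNA was sequenced from 2 control and 2 siYTHDF2 libraries of pig granulosa cells. The authors deposited 1 table with counts and FPKM per gene and library, per the file headers. Bowtie 0.12.2 and a mouse build stand in the submitters' processing notes, while the identifiers are those of pig, so counter, build and annotation are treated as not stated. Of 165 member symbols found in the Sscrofa11.1 reference table, 163 lay within 5000 bases of the deposited start or end, and coordinates are printed as deposited.

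Deposited counts were tested with edgeR 4.0.16 (R 4.3.3): expression filter, TMM scaling and the quasi-likelihood F test (two-sided, robust), group as the only term, adjusted by Benjamini-Hochberg over 15552 genes. The steps were tested on simulated data with planted changes of 1.5-fold or more. Smaller differences, such as those of every member but ZNF346, were not covered. Alternatives were median ratio and upper quartile scaling, DESeq2 1.42.0, limma 3.58.1 on log2(FPKM + 1), no filter, no trend or robust shrinkage, the replicate number as a block, each library left out, and other floors for members. Named were up to 12 called members per direction without overlap, role-list members, the 5 highest by FPKM, 3 on each side of the floor, TRIM28, SETDB1 and called co-repressors. Other genes named, called relatives, chromosome X, marker genes and CBX5 among them, were chosen after their values were seen. Members and lists were chosen with earlier results of these data known, so no test over a list was made. Protein sequence features were not analysed here.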

Additional observations from a re-analysis of the deposited data

How the results depend on the processing

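The share of members called was below that of other genes with the same smallest count in each refit with another scaling, tool, filter, block or set of libraries. It was highest without control replicate 2, at 9.73% against 23.7%, and with the crossed block it was 9.19% against 35.3%. For other floors no share of other genes was computed. No member was called, against 61 higher and 213 lower genes in all, without trend and robust shrinkage in edgeR, where 32 members had an unadjusted p under 0.05. There the 15 named calls fell to 0, the co-repressor calls to 1 and the calls among zinc-finger genes outside the class to 2. In limma on log2(FPKM + 1) 2 members were higher and 3 lower, 574 genes in all were higher and 1529 lower, 5 named members and 4 co-repressors were called, and 17 zinc-finger genes outside the class, against 9 in the reported fit and 16 with no filter. Leaving out 1 library gave 5 to 8 higher and 2 to 10 lower members, 791 to 1287 higher and 1170 to 1436 lower genes in all, 5 to 13 calls among named members, 5 to 9 among co-repressors, 6 to 10 among zinc-finger genes outside the class, and a class median of -0.017 to 0.047. The lowest counts of members came without control replicate 1 (6 higher, 2 lower) and without siYTHDF2 replicate 1 (5 higher, 2 lower). The class median was -0.038 in limma. With a smallest count of at least 500, 8 of 111 members were higher and 4 lower, with a median of 0.042. Of the 15 calls among members, 15 were kept with median ratio scaling, 13 with upper quartile scaling, 14 with DESeq2, 5 in limma and 11 with the replicate block. The cause of these differences was not tested.

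With the replicate number as a block, 6 members were higher and 5 lower. The block ended the calls of ZNF638, ZNF75D, ZNF287, ZNF217, MORC2, GATAD2A and MBD3 among named genes. The deviations of same-numbered libraries had only a weak negative correlation across genes (-0.148), so the numbers were not taken as pairs. In a crossed pairing added after seeing the data, 9 members were higher and 8 lower, with 1946 higher and 1996 lower genes in all.

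Among named genes the sign of the log2 fold change turned for 8 uncalled members near 0. With upper quartile scaling ZNF281 was at -0.0023 and ZNF292 at -0.015, and in limma ZNF281 was at -0.054, ZNF292 at -0.054 and ZNF131 at -0.025. ZNF292 was at -0.0018 with no filter and -0.013 with the replicate block. Leaving out 1 library gave ranges of -0.34 to 0.060 for ZNF10, -0.096 to 0.025 for ZNF207, -0.11 to 0.061 for ZNF24, -0.021 to 0.041 for ZNF281, -0.26 to 0.21 for ZNF292, -0.064 to 0.21 for ZNF335 and -0.13 to 0.039 for ZNF532. At up to 400 counts the median SE of members was 0.19 on the log2 scale, so a difference like the 0.23 of ZNF638 would be close to 1 SE there.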
